A study of Mus musculus with 24 samples.

Results

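The genes described here are the fatty acid desaturases Scd1, Scd2, Scd3, Scd4, Fads1 and Fads2 and the fatty acid elongases Elovl1, Elovl5, Elovl6 and Elovl7. They are 10 of the 35275 genes in the deposited expression table. They were taken by symbol, but with earlier results of these data known. RNA sequencing was carried out on bulk white fat of mice with an adipose deletion of FoxO1, a forkhead transcription factor held outside the nucleus while insulin signals, and of control mice carrying the floxed FoxO1 gene. Both the gonadal and the inguinal pad of 3 knockout mice (M5, M9 and M12) and 3 control mice (M6, M7 and M10) were sequenced, with 2 libraries per pad and thus 24 libraries in 4 groups. The series was set up to find genes and pathways under FoxO1 control. The labels name neither the Cre driver nor the strain, age, sex, diet or feeding state of the mice. In bulk fat, fewer cells of a type and less RNA per cell cannot be told apart.

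A desaturase inserts a double bond into a fatty acyl chain. An elongase catalyses the first, condensing step of a cycle that lengthens the chain with carbons from malonyl-CoA. In white fat, newly made palmitate is lengthened to stearate by Elovl6. The stearoyl-CoA desaturases turn palmitate into palmitoleate and stearate into oleate, products that are stored as triglyceride. Fads1, Fads2 and Elovl5 act instead on the essential dietary fatty acids and lead to arachidonic acid and other long polyunsaturated acids, while Elovl1 makes very long saturated and monounsaturated chains for sphingolipids.

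Levels are given as FPKM, reads scaled by gene length and by all reads assigned to genes in the library, so they can be set side by side between genes. Libraries held 14953657 to 25438811 assigned reads. The 2 libraries of each pad were averaged, and the mouse was the replicate (n = 3 per group). The animal numbers were read from the library names, and p-values measure the spread between these mice. All 24 libraries were most like the other library of their own pad. Foxo1 itself was 7.87 to 13.6 FPKM in control and 4.01 to 4.46 in knockout gonadal pads, and 13.0 to 19.7 FPKM in control and 2.49 to 5.69 in knockout inguinal pads, so genotypes did not overlap in either depot. The 8 adipocyte markers, among them Adipoq and Plin1, were detected in every pad. Crisp1, a male reproductive tract gene, stood out in 3 gonadal pads (M6, M10 and M12), but other tract genes stood out only in M10 and M12. B cell genes stood out in 4 inguinal pads (M5, M6, M10 and M12). Both sets are given below beside the results that they accompany.

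The stearoyl-CoA desaturase genes lie side by side on chromosome 19 of the mm10 build. In chromosomal order they are Scd3 (chr19:44203288-44244016, + strand), Scd2 (chr19:44293676-44306864, +), Scd4 (chr19:44333092-44346743, +) and Scd1 (chr19:44394451-44407709, -), a cluster spanning 204 kb. Fads2 (chr19:10064164-10101503, -) and Fads1 (chr19:10182888-10196870, +) form a second group on the same chromosome with 81.4 kb between them. The elongases are scattered, with Elovl6 at chr3:129532386-129638495 (+), Elovl1 at chr4:118428093-118432953 (+), Elovl5 at chr9:77917364-77984519 (+) and Elovl7 at chr13:108214404-108287105 (+). Copies of the Scd genes share sequence. Of the 50-base words in annotated Scd1 transcripts, 2.97% also occur in Scd2, 3.42% in Scd3 and 1.72% in Scd4, and 4.77% of those in Scd3 occur in Scd1. The sources used here do not give how reads matching more than 1 gene were counted, and the low Scd3 and Scd4 values are uncertain. No 50-base word was shared between Fads1 and Fads2 or among the 4 elongases.

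Scd1 was by far the most abundant of the 10 transcripts, and within the Scd cluster it held nearly all of the signal. It made up 96.6% ± 1.0 (SD, n = 3) of the summed FPKM of Scd1 to Scd4 in gonadal control pads, 97.8% ± 0.5 in gonadal knockout, 98.4% ± 0.8 in inguinal control and 98.8% ± 0.3 in inguinal knockout pads. Scd2, the form known as the main one in brain, supplied almost all of the remainder, 3.42% ± 0.98 in gonadal control pads and 1.16% ± 0.27 in inguinal knockout pads. Scd1 alone took 0.883% ± 0.184 (SD, n = 3) of all assigned reads in gonadal control, 2.64% ± 0.93 in gonadal knockout, 3.33% ± 2.02 in inguinal control and 7.83% ± 0.66 in inguinal knockout fat. Ranked by FPKM, Scd1 was between the 18th and the 33rd gene in gonadal control pads and the 2nd or 3rd of all genes in inguinal knockout pads. Scd3, Scd4 and Elovl7 were at the edge of detection. Scd3 was at most 0.61 FPKM in any pad, Scd4 at most 0.10 and Elovl7 at most 0.35, resting on 6 to 78, 1 to 13 and 22 to 79 reads per pad. These genes missed the mean of 0.5 FPKM that a gene needed to be tested in each of the 6 comparisons, which left 7 of the 10 genes.

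**Figure D1:**
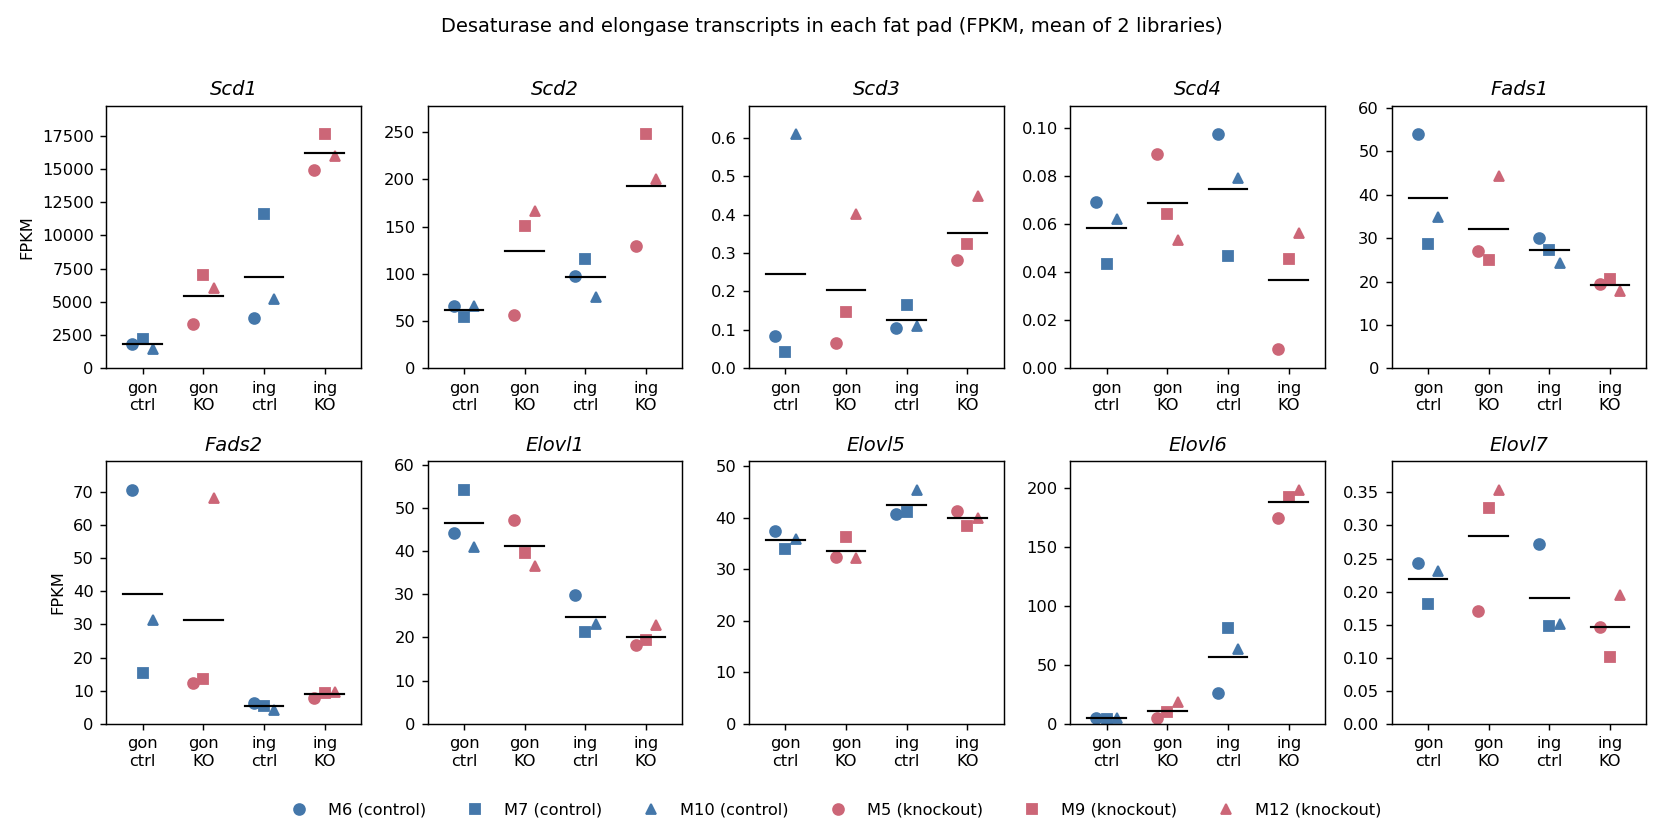
FPKM of each of the 10 genes (vertical axes, each from 0) in every fat pad, by group: gonadal (gon) or inguinal (ing), control (ctrl, blue) or knockout (KO, red). Points are mice (mean of 2 libraries) and bars are group means. Scd1, Scd2 and Elovl6 have their highest group mean in inguinal knockout fat, Fads2 is high in 3 gonadal pads, and Elovl5 stays between 32.2 and 45.4 FPKM.

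In gonadal fat, all knockout pads held more Scd1 than the highest control, Scd2 and Elovl6 were above the controls in 2 of the 3 knockout pads, and no member passed the test. By limma, 0 of the 7 genes had an adjusted p under 0.05, against 0.0% of all 14851 genes tested. Scd1 was 1861, 2182 and 1426 FPKM in control mice M6, M7 and M10 and 3312, 7024 and 6057 FPKM in knockout mice M5, M9 and M12. The genotypes were thus apart, with a log2 fold change of 1.53 by limma (SE 0.34, adjusted p = 0.421). Scd1 was the only one of the 7 whose genotypes did not overlap, where 14.3% of all genes tested did not. At an unadjusted p under 0.05 limma counted 1 of the 7, Scd1, against 8.69% of all genes. edgeR on read counts called 0 of the 7, and DESeq2 called 1, again Scd1, where it called 2.11% of all genes.

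Scd2 was 65.8, 54.4 and 65.7 FPKM in the control gonadal pads of M6, M7 and M10, and 56.7, 151 and 167 FPKM in the knockout pads of M5, M9 and M12. Thus M9 and M12 were above all controls and M5 was among them (limma log2 fold change 0.86, SE 0.41, adjusted p = 0.638). Elovl6, which feeds the stearate and oleate branch, was likewise above the controls in M9 and M12. Its controls were 4.74, 4.11 and 5.02 FPKM, and its knockout pads were 4.80 in M5, 9.74 in M9 and 18.7 in M12 (limma log2 fold change 0.99, SE 0.45, adjusted p = 0.613). M5 was again within the control range. Leaving out M5 moved the log2 fold change to 1.46 for Elovl6 and to 1.35 for Scd2, and leaving out M12 moved them to 0.53 and 0.58. The summed level of the 8 adipocyte markers was 7916 to 8504 FPKM in control and 10653 to 15620 FPKM in knockout gonadal pads. None of the 8 was at 0. In M5 this sum was 10653 FPKM, of which Fabp4 gave 6887, while Adipoq and Lep in M5 lay within the control range. Taken singly, 6 of the 8, Fabp4 and Lpl among them, were higher in all knockout pads, while Adipoq and Lep overlapped. Red blood cell markers summed over 6 genes lay the other way, at 4222 to 13579 FPKM in control and 1611 to 4180 FPKM in knockout gonadal pads, with 5 of the 6 lower in all knockout pads and none at 0. The part of adipocyte or blood content in the Scd1, Scd2 and Elovl6 values was not tested.

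The genes of the polyunsaturated branch overlapped between genotypes in gonadal fat. Fads2, which makes the first desaturation of linoleic and alpha-linolenic acid, was 70.7, 15.3 and 31.2 FPKM in controls M6, M7 and M10 and 12.2, 13.4 and 68.1 FPKM in knockout mice M5, M9 and M12. Each genotype thus held both high and low pads, and the log2 fold change of -0.52 (SE 0.83, limma adjusted p = 0.919) turned to 0.036 when M6 was left out. Fads1, the desaturase acting later in the same route, was 54.0, 28.7 and 34.8 FPKM in controls and 27.1, 25.0 and 44.3 FPKM in knockout pads (limma log2 fold change -0.28, SE 0.31, adjusted p = 0.866). For both genes the 3 highest gonadal pads were M6, M10 and M12. Those same pads held male reproductive tract transcripts, of which M6 held almost only Crisp1. The 8 markers summed to 444 FPKM in M6, 2991 in M10 and 5362 in M12, and to 0.458 to 1.40 FPKM in M5, M7 and M9, where Lcn5, Lcn8 and Spint4 were at 0. In M6 the sum was almost all Crisp1, at 442 FPKM. The 6 markers listed for mammary epithelium, Krt8, Krt18 and Epcam among them, summed to 118, 148 and 208 FPKM in M6, M10 and M12. In the other 3 gonadal pads they summed to 35.0 to 45.3 FPKM. Csn3 of that list did not follow this split, as it was highest in M7, at 0.93 FPKM, and at 0 in M9. The part of tract tissue in the Fads1 and Fads2 values was not tested. In the pads with under 10 FPKM of tract markers, which leave M7 as the lone control beside M5 and M9, the log2 fold changes were -0.25 for Fads2, -0.14 for Fads1, 1.14 for Scd1, 0.76 for Scd2 and 0.68 for Elovl6. With 1 control these values are given as sizes only.

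**Figure D2:**
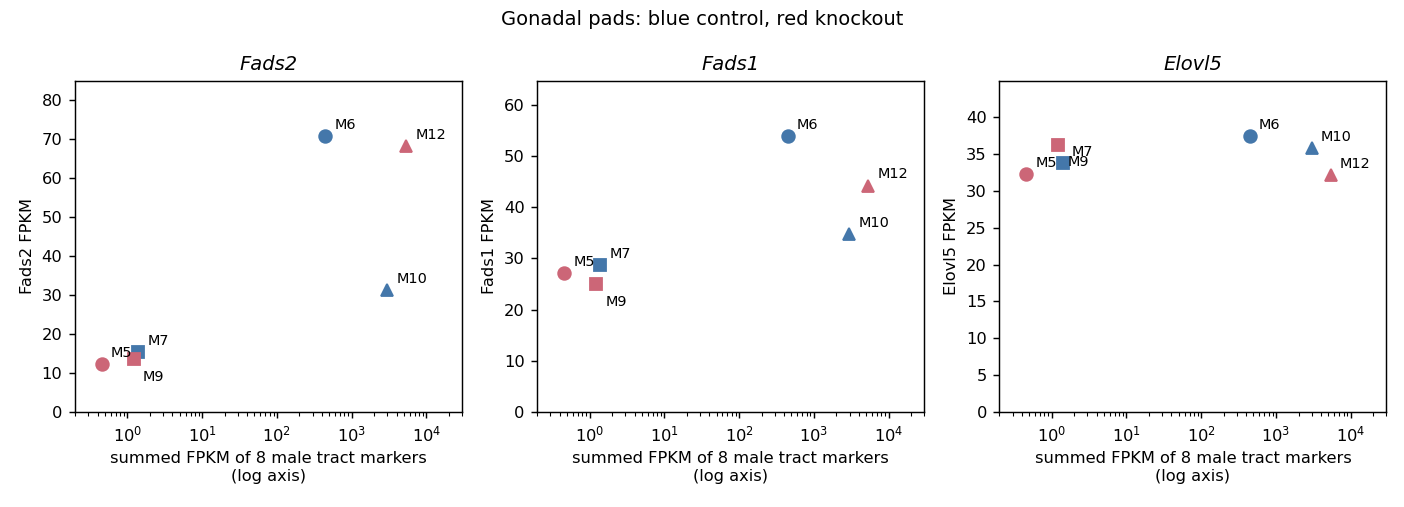
FPKM of Fads2, Fads1 and Elovl5 in the 6 gonadal pads (vertical axes) against the summed FPKM of 8 male reproductive tract markers (log axis), with each mouse named. The Fads2 values of 31.2 to 70.7 FPKM belong to the pads with 444 FPKM or more of tract markers, whereas Elovl5 lies between 32.2 and 37.5 FPKM throughout.

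The Fads2 promoter is shown because this gene had pads of both high and low level within each genotype of gonadal fat, and the Elovl6 promoter because this gene had the largest depot differences of the 7 tested. Both run from 250 bases before to 50 bases after the annotated start, with capitals marking a motif match in Elovl6; the Fads2 window, on the minus strand, held none of the 5 motifs searched. Elovl5, whose fold changes by genotype were near 0, is given for comparison, with capitals at its matches.
Elovl6 (chr3:129532136-129532435, +): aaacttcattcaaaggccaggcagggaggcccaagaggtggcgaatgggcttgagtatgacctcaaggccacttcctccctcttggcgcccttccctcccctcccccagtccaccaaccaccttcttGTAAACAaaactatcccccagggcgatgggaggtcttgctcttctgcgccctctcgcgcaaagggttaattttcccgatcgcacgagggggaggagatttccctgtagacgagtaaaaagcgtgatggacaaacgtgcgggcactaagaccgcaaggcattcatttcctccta
Fads2 (chr19:10101454-10101753, -): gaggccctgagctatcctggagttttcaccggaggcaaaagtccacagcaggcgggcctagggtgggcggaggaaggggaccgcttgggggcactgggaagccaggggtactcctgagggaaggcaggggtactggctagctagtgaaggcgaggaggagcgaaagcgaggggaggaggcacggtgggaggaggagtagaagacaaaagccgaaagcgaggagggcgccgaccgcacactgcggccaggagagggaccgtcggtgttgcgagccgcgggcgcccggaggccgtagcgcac
Elovl5 (chr9:77917115-77917414, +): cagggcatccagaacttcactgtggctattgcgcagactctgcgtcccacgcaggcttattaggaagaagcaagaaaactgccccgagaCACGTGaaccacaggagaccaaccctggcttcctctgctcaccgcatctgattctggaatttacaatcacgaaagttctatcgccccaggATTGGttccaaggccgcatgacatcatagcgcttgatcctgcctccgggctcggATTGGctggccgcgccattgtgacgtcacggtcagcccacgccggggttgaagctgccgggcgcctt
The sequences are from RefSeq on GRCm38.p6, in which 7 of the 10 genes matched; Scd1, Scd2 and Fads1 had no entry. The motifs, searched on both strands, were the forkhead site GTAAACA, the sterol regulatory element TCACNCCAC, the NF-Y box CCAAT, the E-box CACGTG and the LXR type direct repeat. Elovl6 held GTAAACA once, 123 bases before the start, as did 3.65% of all 32851 promoters in the table. Elovl5 held the NF-Y box at both capital ATTGG stretches, on the reverse strand, and one E-box, where 37.4% and 7.15% of all promoters held these. The first of the Elovl1 promoters held 1 NF-Y box, and the promoters of Scd3, Scd4, Fads2 and Elovl7 had no match. The sterol regulatory element letters, found in 1.24% of all promoters, and the LXR type repeat, found in 0.0152%, were in none of the 8 windows. A match describes letters only, and the series holds no binding data.

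In inguinal fat the knockout pads had more Elovl6, Scd1, Scd2 and Fads2 and less Fads1 than every control pad, but again no member passed the adjusted test. By limma 0 of the 7 genes had an adjusted p under 0.05, against 0.022% of all 13621 genes tested. Genotypes did not overlap for 5 of the 7 genes, where 22.5% of all genes tested did not. Of these, 4 were higher in the knockout, a direction in which 5.28% of all genes did not overlap, and 1 was lower, as were 17.3% of all genes. At an unadjusted p under 0.05 limma counted the same 5 genes (14.9% of all genes). edgeR on read counts called 0 of the 7 (0.0147% of all genes), and DESeq2 called 4, namely Scd1, Scd2, Fads2 and Elovl6 (4.85% of all genes). The median log2 fold change of all genes was -0.10 in this depot, and that of the 7 genes was 0.71.

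Elovl6 had the largest difference between genotypes in inguinal fat. It was 26.3, 81.4 and 63.2 FPKM in controls M6, M7 and M10 and 174, 192 and 198 FPKM in knockout mice M5, M9 and M12. All knockout pads were above all control pads, and they lay closer to each other than the controls did (limma log2 fold change 1.86, SE 0.40, adjusted p = 0.160). Scd1 was 3813, 11641 and 5183 FPKM in controls and 14922, 17620 and 16005 FPKM in knockout pads, also without overlap (limma log2 fold change 1.40, SE 0.52, adjusted p = 0.299). Its widest gap was within the controls, where M7 stood well above M6 and M10. Scd2 was 97.7, 116 and 75.4 FPKM in controls and 129, 248 and 201 FPKM in knockout pads, with M5 just above the highest control (limma log2 fold change 0.97, SE 0.27, adjusted p = 0.215). The weakly detected Scd3 followed the same side, at 0.11, 0.16 and 0.11 FPKM in controls M6, M7 and M10 and 0.28, 0.32 and 0.45 FPKM in knockout mice M5, M9 and M12. It was too low to be tested, and it made up 0.0021% of the summed Scd FPKM in both control and knockout inguinal pads. In gonadal fat Scd3 overlapped between genotypes, with means of 0.25 FPKM in control and 0.20 in knockout pads. The control M6 was the lowest inguinal pad for Elovl6, Scd1 and the summed adipocyte markers (17909 FPKM, against 21871 to 29498 in the other 5 pads). Fabp4 gave the most to this sum, whereas Adipoq, Lep, Cidec and Lpl were not lowest in M6. Of the 8 adipocyte markers, Lipe was higher and Adipoq lower in all knockout inguinal pads, and the other 6 overlapped between genotypes. Without M6 the log2 fold changes were 1.38 for Elovl6 and 1.06 for Scd1, and without M7 they were 2.19 and 1.86. Red blood cell markers lay lower in the knockout here too, with 3059 to 10521 FPKM summed over 6 genes in control and 2297 to 2558 FPKM in knockout pads, all 6 of them without overlap. Of the 6 macrophage markers, 4 (Emr1, Csf1r, Mrc1 and Cd163) were lower in all knockout pads, and the 6 summed to 358 to 820 FPKM in control and 167 to 366 FPKM in knockout pads. None of these markers was at 0. Their part in the inguinal values of the desaturases and elongases was not tested.

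The pair of polyunsaturated desaturases lay on opposite sides of the controls in inguinal fat. Fads2 was 6.19, 5.40 and 4.31 FPKM in controls M6, M7 and M10 and 7.92, 9.31 and 9.63 FPKM in knockout mice M5, M9 and M12, so every knockout pad was higher (limma log2 fold change 0.71, SE 0.15, adjusted p = 0.158). Fads1 was 30.0, 27.3 and 24.3 FPKM in controls and 19.4, 20.5 and 17.9 FPKM in knockout pads, so every knockout pad was lower (limma log2 fold change -0.48, SE 0.10, adjusted p = 0.158). Per length, Fads1 exceeded Fads2 4.85-fold to 5.63-fold in control inguinal pads and 1.86-fold to 2.45-fold in knockout ones. Male tract markers summed to at most 2.29 FPKM in any inguinal pad. B cell markers summed to 174 to 280 FPKM in 4 inguinal pads but to 3.10 FPKM in control M7 and 3.88 in knockout M9, so each genotype had 1 pad nearly without them. Over the 4 B cell rich pads alone the log2 fold changes were 2.17 for Elovl6, 1.80 for Scd1, 0.90 for Scd2, 0.70 for Fads2 and -0.52 for Fads1. These pads leave out knockout M9 and control M7, the control highest in Elovl6 and Scd1, so the values are given as sizes only.

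Elovl5 and Elovl1 differed least. Elovl5, which lengthens polyunsaturated chains made by Fads2, was 40.7, 41.1 and 45.4 FPKM in inguinal controls and 41.3, 38.4 and 39.9 FPKM in inguinal knockout pads. Genotypes overlapped, and the log2 fold change of -0.09 had a 95% interval of -0.27 to 0.09. In gonadal fat Elovl5 was 37.5, 33.8 and 35.8 FPKM in controls and 32.3, 36.3 and 32.2 FPKM in knockout pads, with a log2 fold change of -0.09 and a 95% interval of -0.29 to 0.11. Elovl1 was 44.2, 54.3 and 40.9 FPKM in gonadal controls and 47.3, 39.6 and 36.5 FPKM in gonadal knockout pads (log2 fold change -0.17, 95% interval -0.53 to 0.18). In inguinal fat it was 29.8, 21.4 and 23.2 FPKM in controls and 18.3, 19.5 and 22.8 FPKM in knockout pads (log2 fold change -0.28, 95% interval -0.64 to 0.08), again with overlap. Elovl1 shares 53 bases with the oppositely oriented Cdc20, which reached 15.6 FPKM, and the sources used here do not give whether reads were counted by strand. Elovl7 was 0.15 to 0.27 FPKM in inguinal controls and 0.10 to 0.20 FPKM in inguinal knockout pads, and Scd4 was 0.05 to 0.10 and 0.01 to 0.06 FPKM, both with overlap and too low to be tested.

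**Figure D3:**
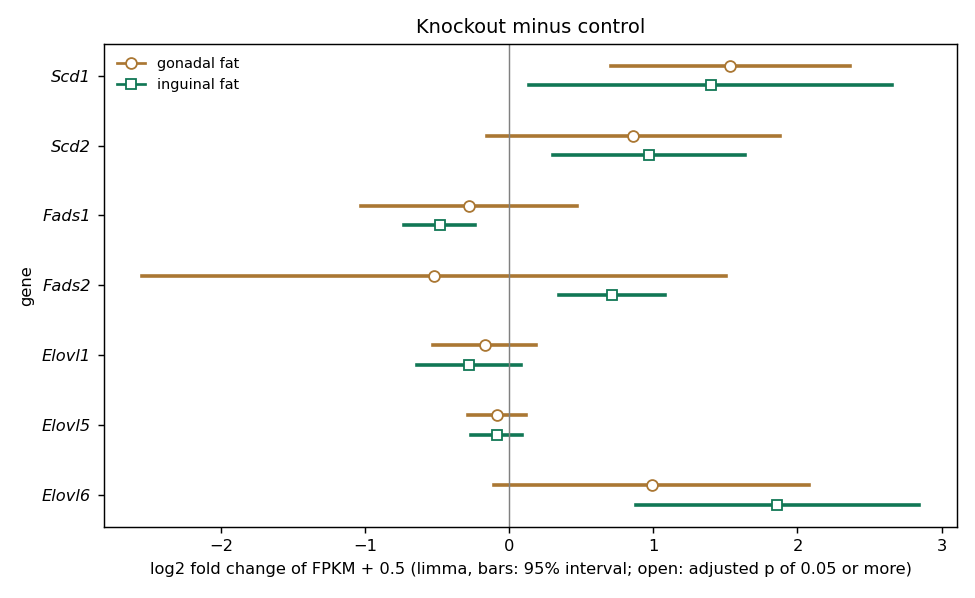
Log2 fold change of FPKM + 0.5, knockout minus control (horizontal axis), for the 7 genes tested, with 95% intervals from limma, in gonadal (circles) and inguinal (squares) fat. Open symbols mark an adjusted p of 0.05 or more, which applies to all 14 points. Scd1, Scd2 and Elovl6 lie to the right of 0 in both depots, Fads2 lies on opposite sides with a wide gonadal interval, and Elovl5 is near 0.

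Averaging the pads of each mouse gave log2 fold changes of 1.47 for Scd1 (SE 0.33, limma adjusted p = 0.180), 1.42 for Elovl6 (SE 0.30, limma adjusted p = 0.163) and 0.92 for Scd2 (SE 0.31, limma adjusted p = 0.285). By limma 0 of the 7 genes passed, against 0.0% of all 14577 genes tested. At an unadjusted p under 0.05 it counted 4 of the 7 (13.9% of all genes), these 3 higher and Elovl1 lower at -0.23. edgeR called 0 of the 7, and DESeq2 called Scd1, Scd2 and Elovl6 (4.57% of all genes). Whether the knockout effect itself differed between depots was tested as an interaction. No gene passed by limma, 0 of the 7 and 0.0% of all 14577, and none of the 7 had an unadjusted p under 0.05 (4.97% of all genes did) or was called by edgeR (0.0%) or DESeq2 (0.11%). The widest differences were for Fads2, 1.23 larger in inguinal fat with a 95% interval of -0.79 to 3.26, and Elovl6, 0.87 larger with an interval of -0.58 to 2.32. For Scd1 the difference was -0.14, with an interval of -1.45 to 1.18, which leaves room for a sizeable difference in either direction.

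The authors' deposited tables, which list only genes that those authors called changed, hold 3 of the 10 genes for gonadal fat, where 5.13% of all 35275 genes are listed. In the authors' deposited table for gonadal fat, Scd1 has a log2 fold change of 1.35 (adjusted p = 9.09e-11), Elovl6 0.94 (adjusted p = 0.000817) and Scd2 0.82 (adjusted p = 0.00176). The authors' deposited table for inguinal fat holds 6 of the 10, where 6.29% of all genes are listed. There the authors' deposited table gives Elovl6 1.38 (adjusted p = 1.84e-08), Scd3 0.98 (adjusted p = 0.00135), Scd2 0.96 (adjusted p = 4.17e-06) and Scd1 0.86 (adjusted p = 0.00584). It gives Fads2 0.82 (adjusted p = 6.27e-09) and Fads1 -0.36 (adjusted p = 0.00292) in the authors' deposited table as well. Those tables carry 6 library columns per group. Treating the 6 libraries of a group as replicates in limma called Scd1 in gonadal fat (7.58% of all genes called) and Scd1, Scd2, Fads1, Fads2 and Elovl6 in inguinal fat (16.1% of all genes called), although each mouse then counts more than once.

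The depots differed more clearly than the genotypes. In control mice 5 of the 7 genes passed limma's test between depots, against 41.4% of all 14505 genes tested, and in knockout mice 5 of the 7 passed, against 47.8% of all 14593. Pads of the 2 depots did not overlap for 6 of the 7 genes in each genotype, where 58.9% of all genes did not in control and 63.5% in knockout mice. The median log2 difference of all genes, gonadal minus inguinal, was 0.18 in control and 0.27 in knockout mice, and that of the 7 genes was -0.25 in each. Elovl6 and Scd1 were lower in gonadal fat and Elovl1 was higher in both genotypes. Pads from the same mouse carry the same animal number, so a fit with the animal as a block is given where it changes a call. With the block, 4 of the 7 genes passed in control mice (35.1% of all genes) and 3 in knockout mice (43.6%).

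Elovl6 had the widest depot gap. Within each control mouse the inguinal level was 5.56-fold (M6), 19.8-fold (M7) and 12.6-fold (M10) that of the gonadal pad, and within each knockout mouse it was 36.2-fold (M5), 19.8-fold (M9) and 10.6-fold (M12). Depots did not overlap in either genotype, and the gonadal minus inguinal log2 difference was -3.35 in control (SE 0.40, limma adjusted p = 0.00185) and -4.22 in knockout mice (SE 0.44, limma adjusted p = 0.00102). Ordered by mean FPKM, Elovl6 was the lowest of the 7 tested genes in gonadal controls (4.62 ± 0.47, SD, n = 3) and the third in inguinal controls (57.0 ± 28.1), behind Scd1 and Scd2. That inguinal place was within its SD of Elovl5 (mean 42.4). In inguinal control M6, Elovl6 (26.3 FPKM) was below Elovl5 (40.7), Fads1 (30.0) and Elovl1 (29.8). Scd2 (62.0 ± 6.6), Elovl1 (46.5 ± 7.0), Fads1 (39.2 ± 13.2), Fads2 (39.1 ± 28.5) and Elovl5 (35.7 ± 1.8) followed Scd1 in gonadal controls, and from Elovl1 to Elovl5 neighbours did not differ beyond their SD. Scd1 was 2.05-fold to 5.33-fold higher in the inguinal pad within each control mouse and 2.51-fold to 4.51-fold within each knockout mouse. Its log2 differences were -1.77 (SE 0.46, limma adjusted p = 0.0248) and -1.63 (SE 0.34, limma adjusted p = 0.0107). Scd2 was lower in gonadal fat of control mice by -0.61 (SE 0.18, limma adjusted p = 0.0333), a call lost with the animal as a block (limma adjusted p = 0.0777), and differed by -0.72 in knockout mice (SE 0.47, limma adjusted p = 0.244).

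Elovl1 was the reverse of Elovl6. Its gonadal pads were 1.48-fold to 2.54-fold their inguinal partners in control mice and 1.60-fold to 2.58-fold in knockout mice. The log2 difference was 0.90 in control (SE 0.16, limma adjusted p = 0.00707) and 1.005 in knockout mice (SE 0.13, limma adjusted p = 0.00189), with no overlap of depots. Fads2 was 11.4-fold, 2.83-fold and 7.24-fold higher in the gonadal pads of controls M6, M7 and M10, and 1.54-fold, 1.44-fold and 7.07-fold in knockout mice M5, M9 and M12. Here too M6, M10 and M12, with male tract transcripts in the gonadal pad (in M6 almost only Crisp1), had the largest ratios. The difference passed in control mice (log2 difference 2.52, SE 0.52, limma adjusted p = 0.0106) and missed in knockout mice (1.28, SE 0.65, limma adjusted p = 0.152), although the depots did not overlap in either genotype. Fads1 was higher in gonadal fat by 0.68 in knockout mice (SE 0.22, limma adjusted p = 0.0454, and 0.0828 with the animal as a block) and differed by 0.47 in control mice (SE 0.23, limma adjusted p = 0.151). Elovl5 was lower in gonadal fat by -0.25 in knockout mice (SE 0.08, limma adjusted p = 0.0398, and 0.0899 with the animal as a block) and differed by the same -0.25 in control mice (SE 0.09, limma adjusted p = 0.0675). Without control mouse M10 only Elovl6 was called in control mice, and without M6 or M7 Scd2 was lost. Without knockout mouse M5 or M9, Fads1 and Elovl5 were lost in knockout mice, and without M12 Scd1 and Elovl5 were lost and Fads2 was gained. Sums of cell type markers moved with depot too. Macrophage markers summed to 5468 to 11525 FPKM over 6 genes in gonadal and 167 to 820 FPKM in inguinal pads, and Lyz2 gave most of the gonadal sums. Mrc1 and Cd163 overlapped between depots, and Cd163 was higher in the inguinal pad of M6, M7 and M10 and in the gonadal pad of M5, M9 and M12. Adipocyte markers summed to 7916 to 15620 FPKM in gonadal and 17909 to 29498 FPKM in inguinal pads, while Lep, Lpl and Cidec overlapped. No marker of either list was at 0, and the part of cell makeup in the depot differences was not tested.

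**Figure D4:**
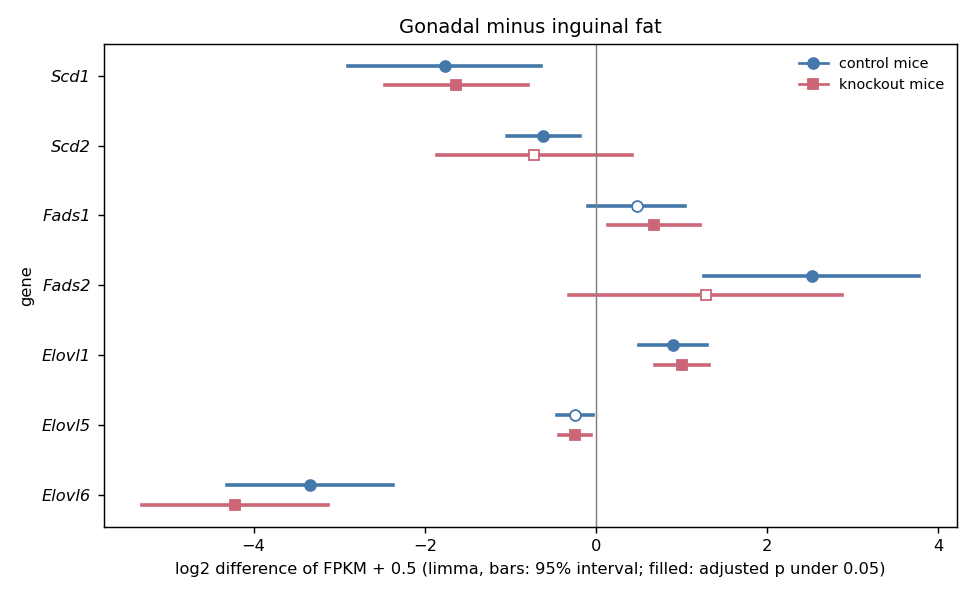
Log2 difference of FPKM + 0.5, gonadal minus inguinal (horizontal axis), for the 7 genes tested, with 95% intervals from limma, in control (circles) and knockout (squares) mice. Filled symbols passed an adjusted p of 0.05. Elovl6 is farthest to the left in both genotypes at -3.35 and -4.22, while Elovl1 lies to the right at 0.90 and 1.005.

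The genes around the desaturases and elongases were described in 6 lists of 50 genes in all. The 11 genes of substrate supply, which make and activate the fatty acids these enzymes use, lay mostly on the side of Scd1 and Elovl6. By limma 0 of the 11 passed in either depot. In gonadal fat 9 were higher and 2 lower in the knockout (median log2 fold change 0.86, against -0.02 for all genes), 7 did not overlap (14.3% of all genes) and 8 had an unadjusted p under 0.05 (8.69%). In inguinal fat 8 were higher and 3 lower (median 1.22, against -0.10 for all genes), 8 did not overlap (22.5% of all genes) and 7 had an unadjusted p under 0.05 (14.9%). edgeR called none of them, and DESeq2 called 6 in each depot, all higher, where it called 2.11% of all genes in gonadal and 4.85% in inguinal fat. In inguinal fat Acly, the cytosolic citrate lyase that makes acetyl-CoA, was 804 ± 41 FPKM (SD, n = 3) in knockout and 287 ± 92 in control pads (limma log2 fold change 1.53, SE 0.23, adjusted p = 0.129). The acetate-activating enzyme Acss2 was 169 ± 19 and 55.6 ± 17.0 FPKM (limma log2 fold change 1.63, SE 0.22, adjusted p = 0.111). Me1, the malic enzyme that supplies NADPH, was 630 ± 43 and 233 ± 79 FPKM (limma log2 fold change 1.49, SE 0.27, adjusted p = 0.141). In gonadal fat the smallest p-values belonged to Acsl1, Me1 and Fasn. Acsl1, which activates long-chain fatty acids, was 160 ± 36 FPKM in knockout and 76.4 ± 7.4 in control pads (limma log2 fold change 1.04, SE 0.19, adjusted p = 0.407).

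The later steps of the elongation cycle and the electron supply had smaller differences. Of the 6 genes of the cycle's later steps, limma called 0 in either depot and edgeR called none. DESeq2 called Hsd17b12 and Tecr in inguinal fat, where it called 4.85% of all genes. Tecr, the reductase that ends the cycle, was 269 ± 5 FPKM in knockout and 199 ± 26 in control inguinal pads (limma log2 fold change 0.45, SE 0.11, adjusted p = 0.181). Hsd17b12, the ketoacyl reductase, was 159 ± 7 and 98.3 ± 26.2 FPKM (limma log2 fold change 0.72, SE 0.19, adjusted p = 0.203). The median over the 6 genes was 0.07 in gonadal and 0.11 in inguinal fat, and 1 and 3 of them had an unadjusted p under 0.05 (8.69% and 14.9% of all genes). Of the 5 tested genes for cytochrome b5 and its reductases, which pass electrons to the desaturases, limma and edgeR called 0 in either depot. DESeq2 called Cyb5b in inguinal fat (4.85% of all genes called). Cyb5b was 130 ± 9 FPKM in knockout and 89.6 ± 4.8 in control inguinal pads (limma log2 fold change 0.54, SE 0.08, adjusted p = 0.129). Cyb5a leaned the other way, at 205 ± 13 and 242 ± 6 FPKM (limma log2 fold change -0.24, SE 0.08, adjusted p = 0.271). The median of the 5 was 0.10 in gonadal fat, with none under an unadjusted p of 0.05, and -0.17 in inguinal fat, with 4 under it (8.69% and 14.9% of all genes).

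Of the 15 regulators of desaturase and elongase genes, limma and edgeR called 0 in either depot, and 3 had an unadjusted p under 0.05 in each, against 8.69% of all genes in gonadal and 14.9% in inguinal fat. Their median was 0.15 in gonadal and -0.02 in inguinal fat. Thrsp, a lipogenic gene of thyroid hormone and carbohydrate response, was 588 ± 254 FPKM in knockout and 195 ± 54 in control gonadal pads (limma log2 fold change 1.52, SE 0.41, adjusted p = 0.454), and 2197 ± 145 and 1163 ± 386 FPKM in inguinal pads (limma log2 fold change 0.98, SE 0.29, adjusted p = 0.224). DESeq2 called Thrsp in both depots and Ppara in inguinal fat, where it called 2.11% of all genes in gonadal and 4.85% in inguinal fat. Srebf1, which encodes the sterol regulatory factors that drive lipogenic genes, was 93.1 ± 21.7 and 61.9 ± 4.2 FPKM in gonadal pads (limma log2 fold change 0.56, SE 0.19, adjusted p = 0.512). In inguinal fat its knockout pads, at 128 to 146 FPKM, lay inside the control range of 99.4 to 168 FPKM. Nr1h3, which encodes the oxysterol receptor LXR alpha, was higher without overlap in gonadal knockout pads (48.7 ± 5.0 and 40.8 ± 2.8 FPKM, limma adjusted p = 0.568) and lower without overlap in inguinal knockout pads (50.5 ± 2.9 and 60.2 ± 2.4 FPKM, limma adjusted p = 0.219). Between depots, 8 of the 15 regulators were lower and 2 higher in gonadal fat of control mice by limma, where 41.4% of all genes were called. Among them was Mlxipl, the gene for the carbohydrate response factor ChREBP, at 10.5 ± 0.6 FPKM in gonadal and 32.8 ± 2.9 in inguinal pads (log2 difference -1.60, SE 0.10, limma adjusted p = 0.000377).

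**Figure D5:**
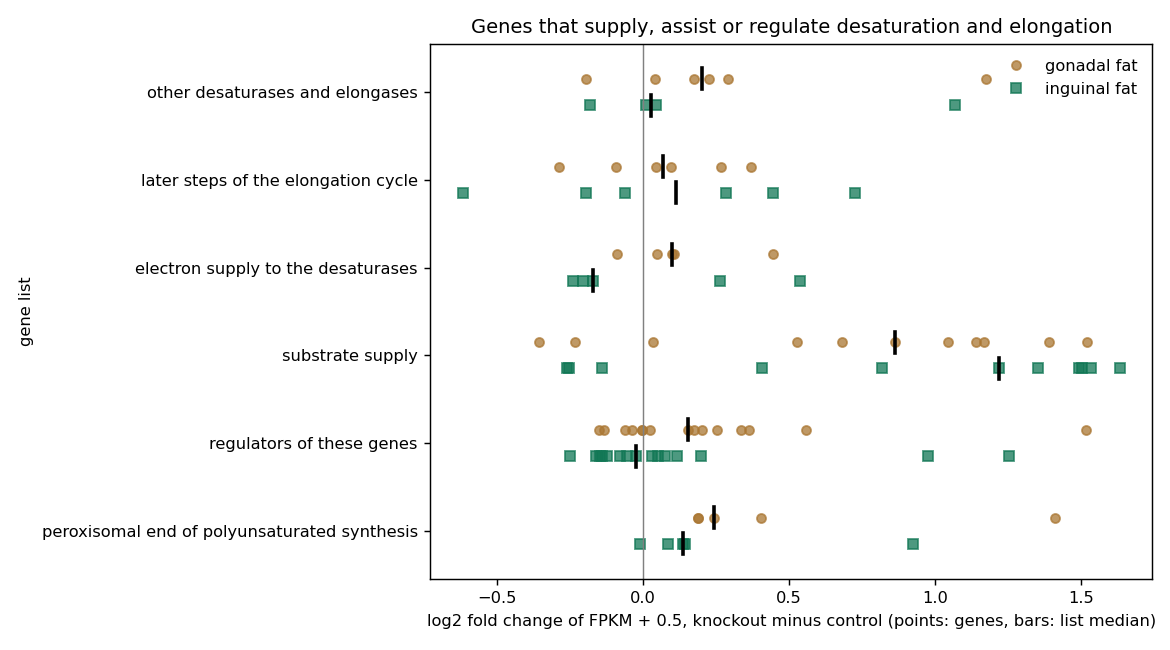
Log2 fold change of FPKM + 0.5, knockout minus control (horizontal axis), for every tested gene of 6 lists (rows), in gonadal (circles) and inguinal (squares) fat; vertical bars are list medians. Substrate supply has medians of 0.86 and 1.22, while the other medians lie between -0.17 and 0.24.

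Across the 12 pads, the genes whose log2 levels ran closest to Elovl6 among 12133 genes were Acaca (Pearson r = 0.994), Fam57b (0.993), Acly (0.993), Letm1 (0.992) and Cs (0.990). For Scd1 they were Unc5a (0.991), Poln (0.984), Slc25a1 (0.982), Tmem179 (0.980) and Slc25a10 (0.977). Scd2 was most like Efcab8 (0.966), Pmepa1 (0.930), Dhx32 (0.927), Prrt4 (0.926) and Bcl6b (0.924). The genes closest to Fads2 were Ptpn3 (0.962), Mpp5 (0.956), Spint1 (0.950), Sipa1l3 (0.946) and Abca3 (0.945). The 12 pads share 6 mice and a depot difference that much of the transcriptome follows, so these values describe likeness only.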

How the data were processed

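Total RNA was extracted with a Qiagen kit and made into libraries with a NEBNext kit, as the labels' protocols state. CASAVA, STAR and the mm10 build appear in the submitters' processing notes. The counting tool and whether it used strand were not given in the sources used here. The authors deposited FPKM for 35275 genes in 24 libraries. Their comparison tables hold, per the file headers, read counts, a scaled mean signal for each group, log2 fold changes and p-values. Another 24 columns of per-sample values in those tables, which repeat the FPKM, were not used. Library names beginning with f were read as control and with z as knockout (the authors' knockout means follow the z columns), and endings e and s as gonadal and inguinal. These readings were inferred, as was the animal number, and each column was tied to a group and to no single sample.

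The 2 libraries of a pad were averaged, giving 3 mice per group. Genes with a mean of at least 0.5 FPKM over the pads of a comparison were tested on log2(FPKM + 0.5) with limma 3.58.1 (R 4.3.3, two-sided, with a mean-variance trend) and Benjamini-Hochberg adjustment over all genes tested and a threshold of 0.05. This scale makes the fold changes of low genes too small. Whole reads were rebuilt from FPKM, gene length and the library total for 100% of values (tolerance 0.001). These counts, summed per pad, were tested with edgeR 4.0.16 and DESeq2 1.42.0 as alternatives. The fits were tested on simulated data. Other alternatives were the pseudocount, the filter, median centring, leaving out each mouse, 6 libraries per group, the animal as a block and subsets of pads. The members, gene lists and marker lists were chosen with earlier results of these data known, and all 128 list genes were found, 5 of them by gene ID. Named genes are the 10 members, Foxo1, up to 3 genes of each list with the smallest p, and the 5 genes most like Scd1, Scd2, Fads2 and Elovl6 with a mean of at least 1 FPKM. Srebf1 in inguinal fat, Elovl2 and the marker genes named singly were added after their values were seen. Pads of a mouse share its animal number. The deviations of its gonadal and inguinal pads from their group means correlated at 0.14 in M5, 0.12 in M6, 0.04 in M7, 0.01 in M9, 0.03 in M10 and -0.10 in M12 across genes.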

Additional observations from a re-analysis of the deposited data

How the results depend on the processing

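Among the recomputed log2 fold changes of single members, 507 kept their direction and their side of the threshold, 22 gained and 22 lost a call, and 23 changed sign. All 32 recomputed Scd shares moved by less than the SD between mice. The cause of the sign changes was not tested. For the knockout effect in gonadal fat, Fads2 ranged from -1.31 to 0.036 when single mice were left out, and Elovl5 was 0.018 in pads with little male tract signal. In inguinal fat Elovl5 was 0.031 after median centring, 0.0014 by edgeR and 0.028 by DESeq2. Over both depots Fads2 was -0.14 by edgeR and -0.13 by DESeq2, and ranged from -0.32 to 0.43 when single mice were left out. For the difference in effect between depots, leaving out single mice gave ranges of -0.50 to 0.19 for Scd1, -0.12 to 0.34 for Scd2, -0.40 to 0.097 for Fads1, -0.32 to 0.062 for Elovl1 and -0.063 to 0.083 for Elovl5. Elovl5 there was 0.11 after median centring, 0.00037 with 6 libraries per group, 0.093 by edgeR and 0.079 by DESeq2.

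The number of members called rose from 0 to 1 in gonadal fat with 6 libraries per group or DESeq2. In inguinal fat it rose from 0 to 5 with 6 libraries per group and to 4 with DESeq2, and over both depots from 0 to 3 with DESeq2. Between depots it fell from 5 to 3 in each genotype when no filter was applied. Genes called overall were then 5765 of 25523 in control and 6725 of 25385 in knockout mice. With the filter they were 6010 of 14505 and 6971 of 14593. Leaving out single mice gave 1 to 4 called members in control and 3 to 4 in knockout mice. With the animal as a replicate block, 4 members were called in control and 3 in knockout mice. Scd2 in control mice and Fads1 and Elovl5 in knockout mice lost their calls. For the difference in effect between depots the block gave 0 called members. No other member's call changed with the block. No paired analysis was possible for knockout against control because these are different mice that no number in the library names pairs. Genes called overall went from 0 to 1125 (6 libraries) and 313 (DESeq2) in gonadal fat, from 3 to 2189 and 661 in inguinal fat, from 0 to 666 (DESeq2) over both depots, and from 0 to 265 and 16 for the difference between depots. Leaving out M7 gave 78 genes in inguinal fat and 9 over both depots, and leaving out M10 gave 1 in gonadal fat. Without single mice, 1534 to 5257 genes were called between depots in control mice, against 6010 with all of them, and 3047 to 5911 in knockout mice, against 6971. Scd3, Scd4 and Elovl7 could not be judged at this depth.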

Other observations

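Of the 7 desaturases and elongases outside the 10 members, Elovl4, Elovl2 and Fads6 had their highest values in gonadal pads that held male tract transcripts. Elovl4, which makes very long chains in retina, skin and testis, was 5.70 FPKM in the gonadal pad of M12 and at most 0.11 FPKM in the other 11 pads. Elovl2, which lengthens long polyunsaturated acids, was 1.60 FPKM in the gonadal pad of M10 and 2.04 in that of M12, and at most 0.18 FPKM elsewhere. The gonadal Fads6 values of M6, M10 and M12 were 2.63, 1.502 and 2.11 FPKM, against 0.99 to 1.11 FPKM in M5, M7 and M9. These pads had 444 to 5362 FPKM of tract markers, in M6 almost only Crisp1, and Elovl4 and Elovl2 were not raised in M6. The part of tract tissue in these values was not tested. Degs1, the sphingolipid desaturase, was lower in those pads, at 64.5, 74.3 and 75.6 FPKM in M6, M10 and M12 against 86.6 to 90.8 FPKM in M5, M7 and M9, while Fads3 and Degs2 overlapped.

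Elovl3, an elongase of brown and beige fat, was 0.15, 0.62 and 0.75 FPKM in inguinal controls M6, M7 and M10 and 1.56, 1.45 and 1.58 FPKM in knockout mice M5, M9 and M12, with no overlap (limma log2 fold change 1.07, SE 0.27, adjusted p = 0.182). The 5 brown and beige adipocyte markers summed to 126, 482 and 438 FPKM in those controls and to 384, 592 and 516 FPKM in the knockout pads, so their genotypes overlapped. Fads3, which acts on sphingoid bases, was 118 ± 15 FPKM (SD, n = 3) in control and 121 ± 11 in knockout inguinal pads (limma log2 fold change 0.04, SE 0.12, adjusted p = 0.915). Acaa1b, a peroxisomal thiolase of the list on the end of polyunsaturated synthesis, was 30.0 ± 6.4 FPKM in knockout and 11.0 ± 2.1 in control gonadal pads without overlap (limma log2 fold change 1.41, SE 0.21, adjusted p = 0.407).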
